A study of Mus musculus with 104 samples.

Results

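The genes described here build the machinery with which a nerve terminal releases transmitter and recovers the membrane: 41 named genes of the 45808 gene rows in the count table, given by name. The rule itself uses no measured value, although the list was drawn up with earlier results of these data known. They fall into 4 classes: 12 genes of vesicle fusion, 9 of vesicle proteins, 9 of the active zone and 11 of endocytosis. In background, a vesicle fuses with the plasma membrane when the SNARE proteins syntaxin, SNAP-25 and VAMP zipper together under the control of synaptotagmins and complexins, and NSF with its SNAP adaptors takes the spent complex apart. Active zone scaffolds dock and prime vesicles beside the calcium channels, and clathrin, its AP2 adaptor, endophilin, amphiphysin and dynamin pull the membrane back in. Dopaminergic neurons of the substantia nigra use this machinery in long, branched axons and also release dopamine from their cell bodies and dendrites.

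Each library held the RNA of 1 neuron drawn into a patch pipette from a slice of mouse substantia nigra, and the labels call every library a dopaminergic neuron. The titles give 38 libraries as experiment and 66 as control. The series design speaks of picking neurons of the substantia nigra pars compacta that carry inclusions of α-Syn-6H-EGFP, an EGFP-tagged α-synuclein reporter, from brains perfused under tribromoethanol anesthesia. The labels used here do not say what the control neurons lacked, and give no strain, age, sex, vector or time. No animal is named for any library. A group therefore has the standing of 1 sample, and no test or p-value between groups was made.

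Library totals ran from 116567 to 3094036 gene counts in the experiment group (median 960027) and from 153770 to 2577694 in the control group (median 1039850). The median number of genes with a count was 7354 and 8548. The libraries also fall into 2 sets by their titles, which the labels do not call batches: set 1 with 21 experiment and 31 control libraries, and set 2 with 17 and 35. Tyrosine hydroxylase, Th, was present in all libraries, at 138 to 10616 CPM, counts scaled to a fixed library total, in the experiment group and 1128 to 27011 in the control group. It lay below 2000 CPM in 5 experiment and 2 control libraries. Experiment library 27 stood apart, with the lowest Th, the highest summed glial markers (15462 CPM) and the lowest summed level of the 41 genes (11541 CPM).

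Levels are given as pooled CPM, a gene's summed count in a group over the group's summed gene counts, and as library CPM, the same in 1 neuron. Ratios are experiment over control, with a 95% interval that covers counting error only and is far narrower than the spread between neurons. A gene was counted as at least 1.5-fold apart where both the pooled ratio and the ratio of mean library CPM, which weights neurons equally, passed that fold in 1 direction. Ratios of a gene within a title set are pooled unless stated. All 41 genes met the rule for an expressed gene, a pooled CPM of at least 10 and counts in no fewer than 25% of the libraries of 1 group or both, as did 9113 genes in all.

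Most of the 41 genes stood somewhat lower in the experiment neurons, and few stood far lower. Rab3b, Unc13c and Ap2a1 were at least 1.5-fold lower, which is 3 of 41 or 7.32%, against 11% of all expressed genes. None was at least 1.5-fold higher, against 7.77% of all expressed genes. In direction alone, 28 of the 41 (68.3%) were lower by both weightings, against 45.8% of all expressed genes, and 7 were higher by both, against 40.9%. In both title sets the pooled ratio was below 1 for 26 genes (63.4%), against 31.6% of all expressed genes. The median log2 ratio of the 41 was -0.28 by pooled CPM and -0.22 by mean library CPM. For all expressed genes these values were -0.03 and -0.02.

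The lower position of the group depended on the scale. On ratios of median library CPM the members' median log2 ratio was -0.37 and that of all expressed genes -0.43, and on mean log2(CPM + 1) the members' median stood at -0.019 relative to that of all expressed genes. Among the 2086 genes of at least 100 CPM, a cut chosen after seeing the data that 32 members passed, the members' median was -0.33 against -0.07 for all such genes on median library CPM, and -0.28 against -0.23 on mean log2(CPM + 1). Without experiment library 27 the pooled median of the 41 was -0.25, and without the 7 libraries low in Th it was -0.24. Without library 27, Rab3b, Unc13c and Ap2a1 were again the genes at least 1.5-fold lower. Without the libraries low in Th, Ap2a1 moved inside the fold (pooled ratio 0.679, 0.691 by means) and Rims2, of the active zone, beyond it (0.480 and 0.438), with none higher in either case. Per ERCC count, all 41 genes were lower by both weightings, as were 91.4% of all expressed genes, whose median stood at -0.78. The directions higher and lower given here are therefore relative to a neuron's total counts. The plot of log2 ratios by class shows that most pooled ratios lie between the fold lines and to the left of 0.

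**Figure D1:**
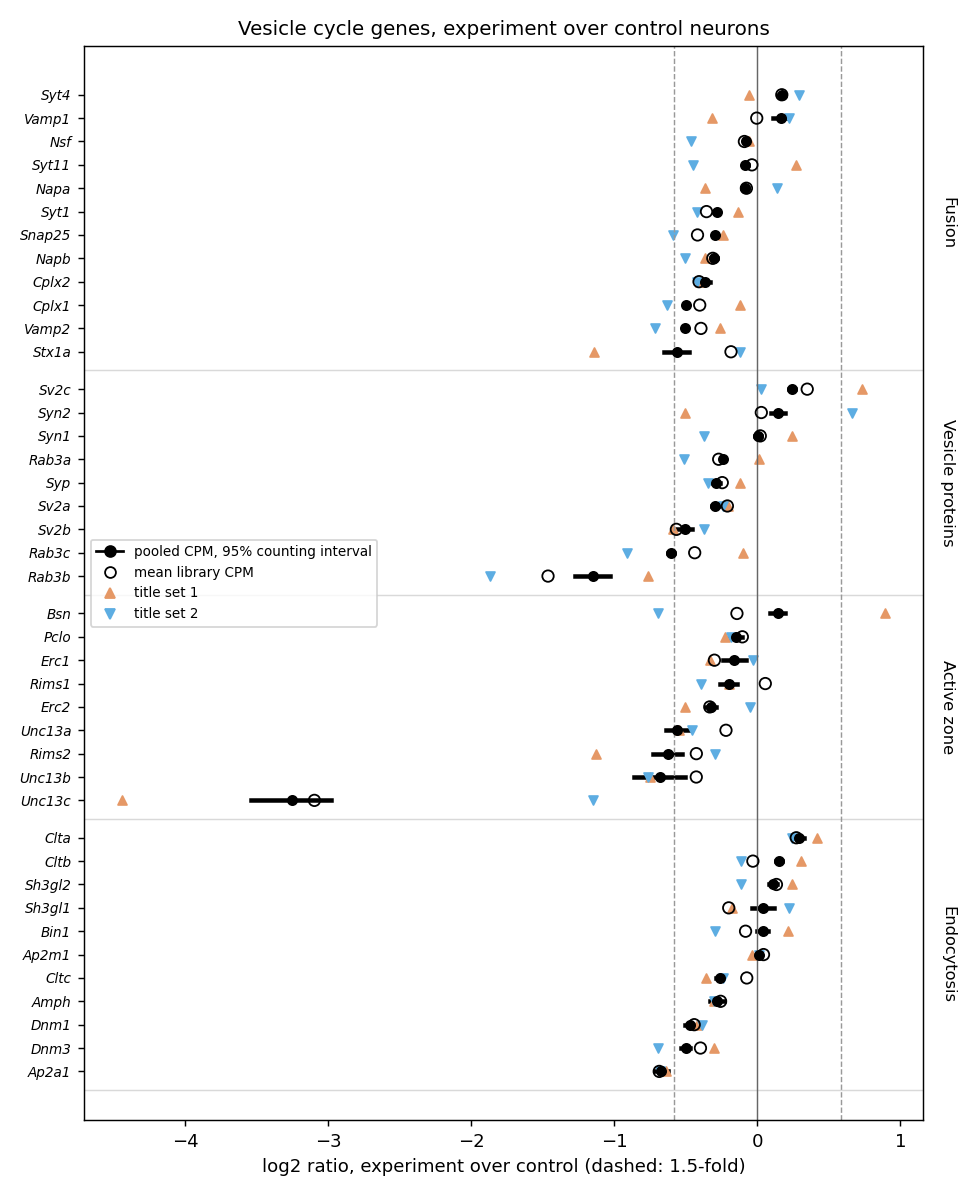
log2 ratio of each of the 41 genes, experiment over control, by class. Filled points are pooled CPM with the 95% counting interval, open circles mean library CPM, and triangles each title set; Unc13c, Rab3b and Ap2a1 lie beyond the dashed 1.5-fold line by both weightings, and none lies beyond it on the right by both.

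Summed over the 41 genes, a control neuron gave 13788 to 40373 CPM with a median of 29420.2, and an experiment neuron 11541 to 34318 CPM with a median of 23898. The groups overlapped, and 34 of the 38 experiment neurons lay below the control median. The gap differed in size between the title sets. In set 2 the medians were 22311 and 30163 CPM and all 17 experiment neurons lay below the set's control median. In set 1 they were 25757 and 27015 CPM, and 13 of 21 experiment neurons lay below. Whether the gap differs between the sets was not tested.

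The fusion class carried most of the sum and most of the gap. Its summed median was 13814 CPM in the experiment and 18339.9 CPM in the control neurons, with 34 of 38 below the control median, 17 of 21 in set 1 and 17 of 17 in set 2. Vesicle proteins summed to a median of 5259 against 5907 CPM. Here the sets went opposite ways, with a ratio of medians of 1.05 in set 1 and 0.733 in set 2. Active zone genes summed to 679 against 831 CPM and endocytic genes to 3719.8 against 4029 CPM.

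**Figure D2:**
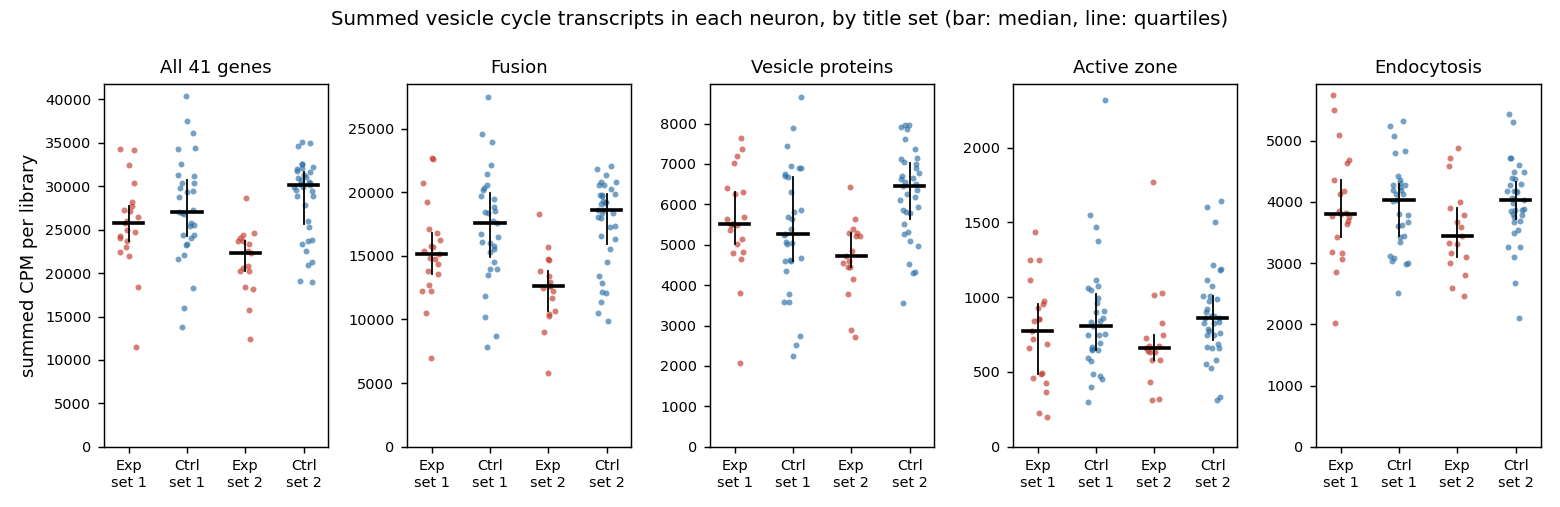
Summed CPM of all 41 genes and of each class in every neuron, by group and title set (bar, median; line, quartiles). In set 2 all 17 experiment neurons lie below the control median for the whole sum and for fusion and vesicle proteins, while in set 1 the vesicle protein sum is no lower in the experiment neurons.

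Other measures moved with the groups too. The dopaminergic marker sum had a median of 16889 CPM in the experiment (range 637 to 23835) and 22607 CPM in the control neurons (2158 to 35941), and 9 of its 10 genes were lower by both weightings. GABAergic markers were higher for all 4 expressed genes of 5, with sums of 0 to 1750.3 against 0 to 1038 CPM and medians of 140.0 and 51.1. Astrocyte markers were higher for all 7 expressed genes of 9, microglial markers for 5 and lower for 1 of 6 expressed of 9, and oligodendrocyte markers higher for 5 of 6 expressed of 8. Only 2 of these oligodendrocyte genes had a pooled ratio above 1 in both title sets. Their median log2 ratio was 0.71 in set 1 and -1.91 in set 2. The median oligodendrocyte sum was 1450 against 1221 CPM in set 1 and 402 against 290 CPM in set 2, experiment against control. Summed over the 3 glial lists, levels ran from 71.2 to 15462 CPM in the experiment (median 2055) and from 424 to 10291 CPM in the control neurons (median 1410.5). None of the 5 endothelial markers was expressed, and Slc17a8 and Cldn5 had no count in any library. Mitochondrial genes took a median 4.33% of counts in the experiment and 2.72% in the control neurons, and ERCC spike-ins 0.421% and 0.251%. Their part in the lower vesicle gene levels was not tested; without the 10 libraries highest in glial markers the members' median log2 ratio was -0.25.

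In the fusion class, 10 of 12 genes were lower by both weightings, 1 was higher and 1 was split, and none was 1.5-fold apart. Cplx1, which encodes complexin 1, a small clamp and activator of the SNARE complex, was the most abundant member per length, at 2015 CPM per kb of exons in control and 1426 in experiment neurons. Library CPM of Cplx1 ran from 106 to 9428 with a median of 4090.4 in the control group, and from 725 to 6656 with a median of 3036 in the experiment group. The control neurons spanned the wider range at both ends and 28 of 38 experiment neurons lay below the control median. The pooled ratio was 0.708 (0.703 to 0.712) and that of means 0.756, with pooled ratios of 0.92 in set 1 and 0.646 in set 2. By median the sets went opposite ways. The experiment median was the higher in set 1 (3334 against 2868 CPM) and the lower in set 2 (2964 against 5078 CPM). Cplx1 lies on chromosome 5, 108518554 to 108550024, minus strand (GRCm38).

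Upstream bases of members were read from RefSeq promoter windows (GRCm38.p6), 300 bases each from 250 before to 50 after the annotated start, which matched 36 of the 41 genes by symbol. They were searched on both strands for sequence features that the choice of genes did not use. The GC box GGGCGG was in the windows of 28 of 36 members (77.8%), against 38.2% of the 27025 genes with a window, and TATAAA in 8.33% against 15.7%. All members were expressed, whereas the 27025 genes were not chosen by expression, so these shares do not compare like with like. No share was taken over expressed genes alone. The bases before the start of Cplx1, the member with the highest level per length, are chr5:108550028-108550277 on the minus strand. They are read 5′ to 3′ up to the start, with the single GC box, here as its reverse complement CCGCCC, in capitals.
Cplx1: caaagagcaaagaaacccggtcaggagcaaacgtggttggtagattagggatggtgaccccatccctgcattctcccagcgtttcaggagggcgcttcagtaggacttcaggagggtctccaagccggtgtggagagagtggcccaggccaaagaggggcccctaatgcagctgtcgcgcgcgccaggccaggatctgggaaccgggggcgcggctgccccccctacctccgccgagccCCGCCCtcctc

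Snap25, the plasma membrane SNARE that provides a pair of the complex's helices, was the next fusion gene per length, at 686 CPM per kb in control and 558 in experiment neurons. Its library CPM had a low of 1489.5, a median of 2994 and a high of 8466 in the experiment group, and 1441, 4366 and 10305 in the control group. Of the 38 experiment neurons, 32 lay below the control median, while a few lay among the highest neurons of either group. Experiment library 2 alone held 17.2% of the group's Snap25 counts. The pooled ratio of Snap25 was 0.814 (0.809 to 0.819), the ratio of means 0.748, and the pooled ratio with the top library of each group removed 0.743; the sets gave 0.848 and 0.664. Snap25 lies on chromosome 2, 136713453 to 136782428, plus strand.

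Vamp2, the vesicle SNARE synaptobrevin 2, had a median of 1493 CPM in experiment and 2044 CPM in control neurons, a pooled ratio of 0.703 and 27 of 38 experiment neurons below the control median. Its lowest value, 37.6 CPM, was in the experiment group and its highest, 3917 CPM, in the control group. Vamp1, the paralog, was split between weightings, with ratios of 1.12 pooled and 0.997 by means, and of 2.13 and 1.69 without controls 1 to 10. Stx1a, syntaxin 1A, was low and patchy: 21 of 38 experiment and 15 of 66 control libraries had no count, and its ratios were 0.677 pooled and 0.88 by means. At a common depth of 400000 counts, Stx1a was detected in 13 of 34 experiment and 42 of 60 control libraries. Cplx2, the second complexin, had a ratio of 0.777, lower in both sets (0.756 and 0.745).

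Synaptotagmins differed among themselves. Syt1, the calcium sensor of fast release, had a ratio of 0.821 (0.911 in set 1, 0.745 in set 2), with 27 of 38 experiment neurons below the control median. Syt4, an atypical form found on dense-core vesicles, was the fusion gene higher by both weightings, at 1.13 pooled and 1.13 by means. In set 1 it stood at 0.959 pooled and 1.02 by means. Syt11, another atypical member, stood at 0.943, with 1.20 and 0.733 in the sets. For the genes that dismantle SNARE complexes, the ATPase Nsf had a ratio of 0.946, its adaptor Napa (alpha-SNAP) 0.942 and the brain form Napb (beta-SNAP) 0.809; Napa stood at 1.10 in set 2 and Napb below 1 in both sets.

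Among vesicle proteins, 6 of 9 genes were lower by both weightings and 3 higher. Rab3a, the GTPase that tethers vesicles near release sites, was the most abundant of them per length (905 CPM per kb in control, 766 in experiment neurons). Rab3a had a low of 580.1, a median of 1651 and a high of 3546 library CPM in the experiment group, and 537, 1946 and 3268 in the control group. The groups overlapped over nearly their whole range, yet 31 of 38 experiment neurons lay below the control median. Its pooled ratio was 0.847 (0.839 to 0.855) and that of means 0.829, with pooled ratios of 1.01 in set 1 and 0.703 in set 2. In set 1 Rab3a was the lower by means (0.945) and by median (1675 against 1766 CPM), though not pooled. Experiment library 2, of set 1, held more of the group's Rab3a counts than any other library. With the top library of each group removed, the pooled ratio of Rab3a over both sets was 0.78.

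Its paralogs were further apart. Rab3b, a paralog known from endocrine cells and dopaminergic neurons, was sparse: 27 of 38 experiment and 30 of 66 control libraries had no count, and the highest values were 106 and 321 CPM. Pooled CPM of Rab3b was 16.8 and 37.2, a ratio of 0.451 (0.414 to 0.491), 0.363 by means, 0.587 in set 1 and 0.274 in set 2. At the common depth it was detected in 10 of 34 experiment and 29 of 60 control libraries. Rab3c, which unlike Rab3b was present in every library, ran from 88.6 to 1676 CPM with a median of 629 in the experiment group and from 143 to 2880.3 with a median of 937 in the control group. Its ratio was 0.659 pooled and 0.738 by means, with pooled ratios of 0.933 in set 1 and 0.531 in set 2. By means the sets gave 1.02 and 0.521.

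Syn1, synapsin 1, which holds vesicles in the reserve cluster, was the second most abundant vesicle gene per length and did not stand apart. Library CPM of Syn1 had a low of 96.5, a median of 759 and a high of 1527 in the experiment group and 86.5, 749.7 and 1289.6 in the control group, with 19 of 38 below the control median. The ratio was 1.00 (0.988 to 1.02), made of 1.19 in set 1 and 0.774 in set 2. Syn2 had a ratio of 1.11 that also crossed 1 between the sets (0.704 and 1.58) and was 2.18 without controls 1 to 10. Syp, the vesicle membrane protein synaptophysin, stood at 0.82, lower in both sets.

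Syn1 is also among the members with a full cyclic AMP response element near their start. The element TGACGTCA was in the windows of 4 of 36 members (11.1%), Syn1, Napa, Cltb and Sh3gl2, against 2.03% of all genes with a window. Its first part TGACG, which every such element also holds, was in 33.3% against 23%. These 4 genes had pooled ratios of 1.00, 0.942, 1.11 and 1.08, and the windows of Rab3b, Unc13c and Ap2a1 did not hold the element. CACGTG was in 13.9% of members against 8.09% of all, and the NR4A motif AAAGGTCA in 0 of 36 windows against 1.70%. The genes with a window were again not limited to expressed ones. A letter match is a description and not a binding site.

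The stretches around the element are shown for Syn1 and Cltb, where it lies before the start in both RefSeq and GENCODE, with the element in capitals. The Syn1 stretch is chrX:20921024-20921123 and the Cltb stretch chr13:54611374-54611440, both on the minus strand and read 5′ to 3′. The element ends 151 bases before the RefSeq start of Syn1 and 13 before that of Cltb.
Syn1: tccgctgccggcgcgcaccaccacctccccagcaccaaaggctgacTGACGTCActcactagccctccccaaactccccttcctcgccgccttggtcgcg
Cltb: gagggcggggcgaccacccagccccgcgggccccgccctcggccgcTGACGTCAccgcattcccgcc

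The SV2 glycoproteins, transporter-like proteins of the vesicle membrane, parted by paralog. Sv2a had a ratio of 0.816 and Sv2b of 0.703, each below 1 in both sets. Sv2c, the form enriched in basal ganglia and dopaminergic neurons, stood higher relative to total counts, at 1.18 pooled (1.17 to 1.20) and 1.27 by means, but 0.704 per ERCC count, with 1.66 in set 1 and 1.02 in set 2. Its library CPM ran from 17.5 to 1853 with a median of 684 in the experiment group, and from 2.14 to 1566 with a median of 560.1 in the control group. Both groups covered nearly the same range, with 15 of 38 experiment neurons below the control median. The bases before the Sv2c start, chr13:96132578-96132827 on the minus strand, are shown because Sv2c is the SV2 gene that stood higher and the member with the highest correlation with Cplx1 among control neurons. A relation of these bases to level or correlation was not tested. They hold 2 GC boxes, as CCGCCC, in capitals.
Sv2c: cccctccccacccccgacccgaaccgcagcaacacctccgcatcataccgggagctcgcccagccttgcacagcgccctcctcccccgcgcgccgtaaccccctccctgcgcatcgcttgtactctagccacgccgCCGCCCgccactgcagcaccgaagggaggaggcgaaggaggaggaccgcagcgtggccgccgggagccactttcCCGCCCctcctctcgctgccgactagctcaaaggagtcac

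**Figure D3:**
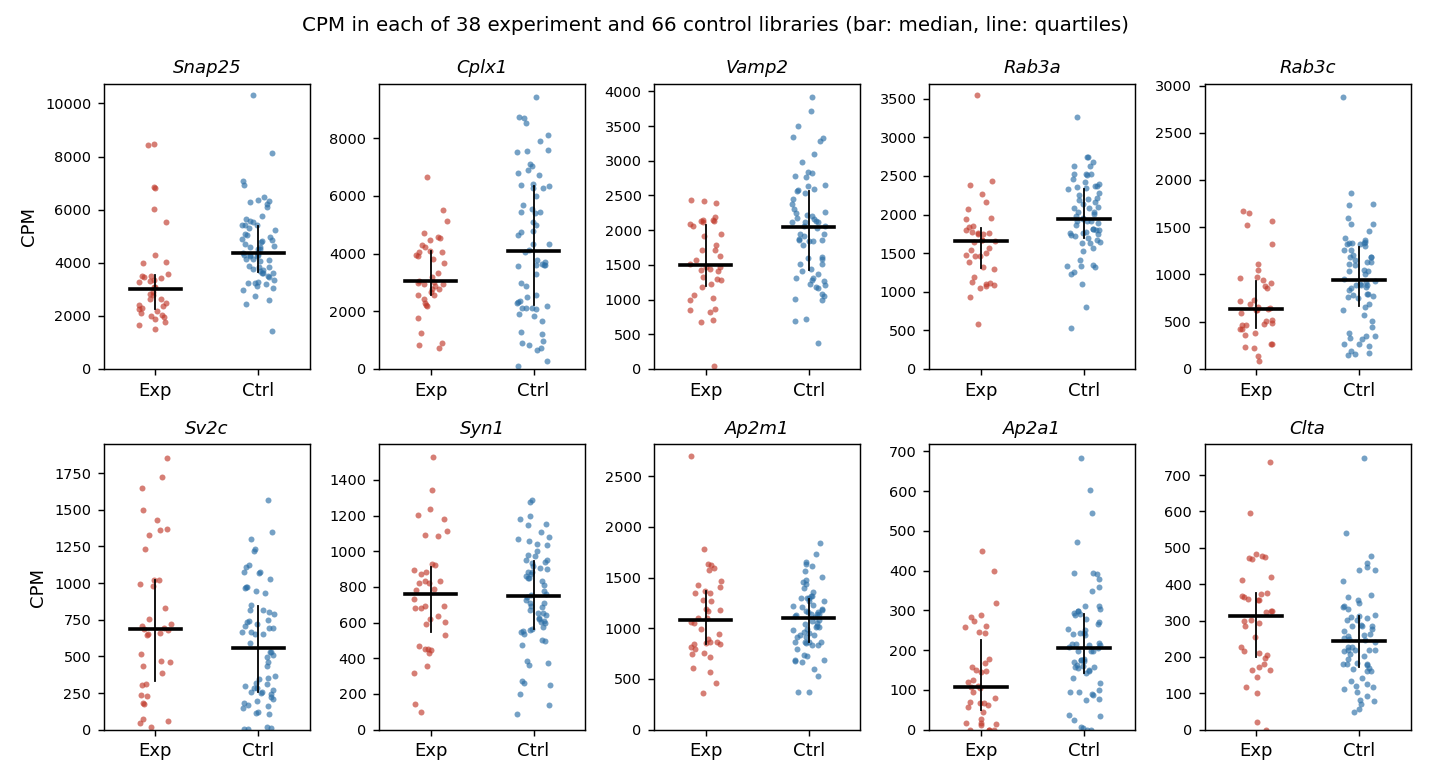
Library CPM of 10 members in every neuron (38 experiment, 66 control; bar, median; line, quartiles). Snap25, Rab3a and Ap2a1 sit lower in most experiment neurons, Syn1 and Ap2m1 have near-equal medians, and Sv2c and Clta have the higher median in the experiment group.

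Active zone genes were the least abundant class per length, and 7 of 9 were lower by both weightings with none higher. Erc2 and Rims1 were the highest, at 29.3 and 12.7 CPM per kb in control neurons. Erc2, the ELKS-family scaffold also called CAST, ran from 0 to 665 CPM with a median of 199 in the experiment group and from 0 to 1160.4 with a median of 273 in the control group. The groups overlapped and 22 of 38 experiment neurons lay below the control median, with a pooled ratio of 0.80 (0.705 in set 1, 0.965 in set 2). Rims1, which recruits Munc13 and calcium channels, ran from 0 to 349 CPM (median 66.1) and from 0 to 587 CPM (median 70.2). Its ratios were 0.871 pooled and 1.04 by means, so the weightings disagreed.

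The Munc13 priming factors stood lower, from low levels. Unc13c was the member furthest apart, at 2.81 against 26.8 pooled CPM, a ratio of 0.105 (0.086 to 0.127) and of 0.117 by means. However, 29 of 38 experiment and 42 of 66 control libraries had no Unc13c count, and the median was 0 in both groups. A single control library, number 7, held 26.2% of the control counts, with the highest value of 502 CPM against 45.6 CPM in the experiment group. The common depth left Unc13c detected in 8 of 34 experiment against 22 of 60 control libraries; the sets gave ratios of 0.0461 and 0.45, and removing the top library of each group gave 0.0901. Without controls 1 to 10, a block of deeper libraries left out after seeing the data, the ratio was 0.618 pooled and 0.570 by means. Unc13a, the main neuronal form, had ratios of 0.679 pooled and 0.859 by means, and Unc13b 0.623 and 0.744, with 32 of 38 and 32 of 66 libraries at 0. Unc13c ranked with the glial marker sum, with a Spearman correlation across neurons of 0.52 in the 38 experiment and 0.28 in the 66 control libraries, a description over libraries that share depth and many zero counts.

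Rims2, the second RIM, stood at 0.648 pooled and 0.744 by means. Pooled, the sets gave 0.458 in set 1 and 0.816 in set 2. By means the order was reversed, with 0.794 in set 1 and 0.627 in set 2. The giant scaffolds bassoon and piccolo gave ratios of 1.10 (Bsn) and 0.902 (Pclo). The Bsn value rested on few libraries: experiment library 1 held 32.7% of the experiment counts, the ratio with the top library of each group removed was 0.801, the ratio of means was 0.906, and the sets gave 1.86 and 0.619. Erc1, the ubiquitous ELKS gene, had a ratio of 0.894 and Pclo and Erc1 were below 1 in both sets.

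Endocytic genes were the most evenly split class, with 5 of 11 lower by both weightings (45.5%, against 45.8% of all expressed genes), 3 higher and 3 split. Their median log2 ratio was 0.01 by pooled CPM and -0.08 by means, and -0.17 in set 1 and -0.24 in set 2. Ap2a1, an alpha subunit of the clathrin adaptor AP2, which binds membrane lipid and recruits accessory proteins, was the most even of the 3 genes at least 1.5-fold lower. Library CPM of Ap2a1 ran from 0 to 450.4 with a median of 107 in the experiment group and from 0 to 683 with a median of 206 in the control group. In 28 of 38 experiment neurons it lay below the control median, although the groups overlapped. Pooled CPM of Ap2a1 was 134 and 213, a ratio of 0.628 (0.608 to 0.647), 0.622 by means, 0.643 in set 1 and 0.623 in set 2. Without the 7 libraries low in Th it was 0.679. The gene lies on chromosome 7, 44900373 to 44929496, minus strand. Its upstream bases, chr7:44929497-44929740 on the minus strand, are shown as those of the evenly lower member, and hold 3 GC boxes, in capitals.
Ap2a1: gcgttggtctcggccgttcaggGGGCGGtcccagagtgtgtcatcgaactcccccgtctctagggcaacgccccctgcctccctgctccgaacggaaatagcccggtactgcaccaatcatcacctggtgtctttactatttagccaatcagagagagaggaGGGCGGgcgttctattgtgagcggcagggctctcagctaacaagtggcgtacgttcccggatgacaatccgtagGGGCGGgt

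The AP2 subunit genes differed in how far they stood from the control level. Ap2a2, the second alpha subunit and not one of the 41, had a ratio of 0.613 pooled and 0.567 by means, 0.558 in set 1 and 0.639 in set 2. The small subunit gene Ap2s1, also outside the 41, had ratios of 0.799 pooled and 0.773 by means, below 1 in both sets (0.878 and 0.705). The beta subunit gene Ap2b1 stood at 0.969 pooled and 0.838 by means, with 1.32 in set 1 and 0.704 in set 2. Ap2m1, the mu subunit that reads cargo signals and the most abundant endocytic member per length (270.2 CPM per kb in control neurons), had a low of 361, a median of 1082 and a high of 2696 library CPM in the experiment group and 370.2, 1099 and 1843 in the control group. The medians lay close together, with 21 of 38 experiment neurons below the control median, a ratio of 1.01 (0.996 to 1.02), and 0.976 and 1.01 in the sets.

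The clathrin coat showed no common direction. Clta, a light chain, was the endocytic gene second in abundance per length (142 CPM per kb in control, 173 in experiment neurons) and had the highest pooled ratio of all 41, although Sv2c was higher by means and other members were higher within each set. Its ratio was 1.22 (1.20 to 1.25) pooled, 1.21 by means, 0.728 per ERCC count, 1.33 in set 1 and 1.18 in set 2. Its library CPM ran from 0 to 737 with a median of 312 in the experiment group and from 49 to 747 with a median of 243 in the control group, and 14 of 38 experiment neurons lay below the control median. The other light chain, Cltb, had ratios of 1.11 pooled and 0.979 by means, and the heavy chain Cltc 0.833 and 0.95. For membrane scission, the neuronal dynamins Dnm1 and Dnm3 had ratios of 0.72 and 0.706, both below 1 in both sets. Amph, amphiphysin, stood at 0.823 and its relative Bin1 at 1.03 pooled but 0.944 by means. The endophilins, which bend the membrane and bring in synaptojanin, stood at 1.08 for the brain form Sh3gl2 and 1.03 for Sh3gl1, the latter 0.871 by means.

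In most families the same paralog made up the larger part of the transcripts in both groups, and 5 of them are given here. Families here hold members only. Per kb of exons, Cplx1 made a median 96.4% of Cplx1 and Cplx2 in experiment and 95.7% in control neurons, and Vamp2 98.8% and 99.2% of Vamp1 and Vamp2. Syn1 made 96.7% and 97.6% of Syn1 and Syn2, and Rab3a 92.4% and 90.7% of Rab3a, Rab3b and Rab3c. Dnm1 made 80.4% and 80.4% of Dnm1 and Dnm3. Each of these differences was smaller than the distance between the quartiles over neurons.

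The share of Sv2c in the Sv2 family was larger in the experiment neurons, with a median of 32.1% (quartiles 21.7 and 44) against 23.9% (14.7 and 32.1). Of the 38 experiment neurons, 28 lay above the control median. By set the medians were 31.2% against 20.1% in set 1 and 33% against 29.9% in set 2. In the synaptotagmin trio, the Syt1 share had a median of 27% against 33.6%, and 29 of 38 experiment neurons lay below the control median. That gap was of like size in both sets (26.9% against 33.6%, and 27.1% against 33.9%). The Syt4 share was 35.6% against 30.2%, nearly equal in set 1 (34.7% and 34.8%) and apart in set 2 (38.2% and 28%).

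**Figure D4:**
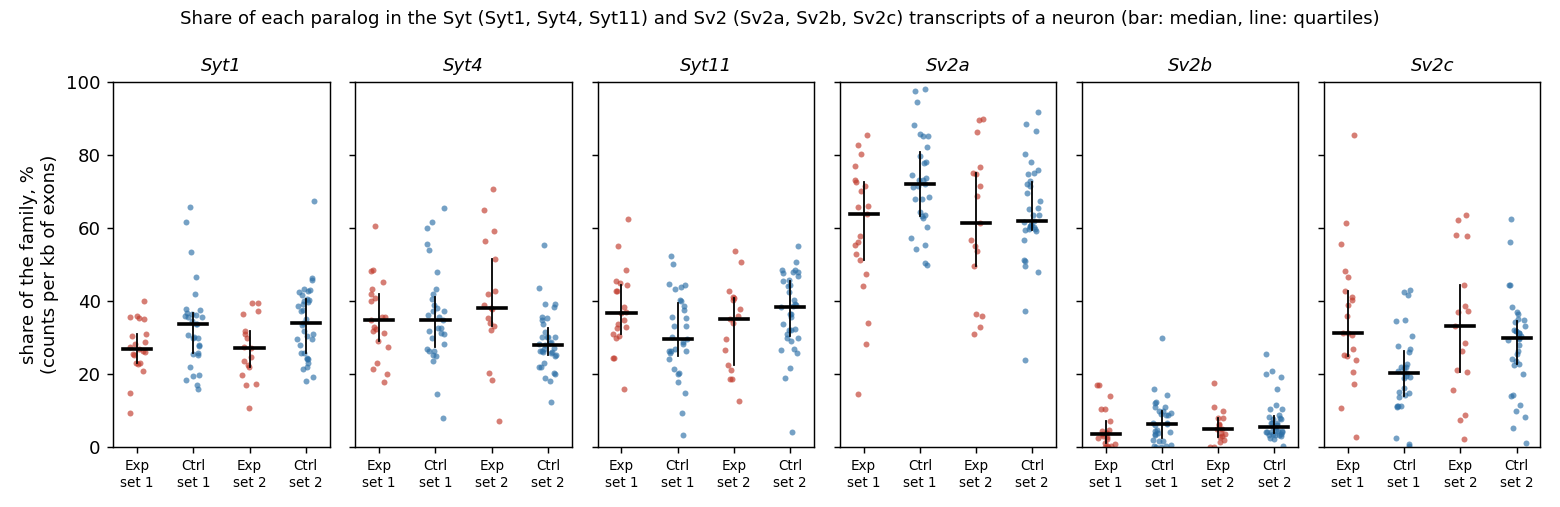
Share of each paralog in the Syt and Sv2 transcripts of a neuron, in percent of counts per kb of exons, by group and title set (bar, median; line, quartiles). The Syt1 median is lower in the experiment group of both sets, and the Sv2c median is higher, by more in set 1 than in set 2.

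From neuron to neuron, the members had a lower median variation than all expressed genes. The coefficient of variation (SD over mean) of library CPM had a median of 0.572 over the 41 in control and 0.682 in experiment neurons, against 1.17 and 1.38 over all expressed genes. Low-count genes vary more by counting alone, so a closer comparison is among genes of at least 100 CPM. That cut does not match level above it, and among the members variation fell with level. There the medians were 0.509 for members and 0.635 for all genes in control neurons, and 0.574 and 0.743 in experiment neurons. In each group 23 of 32 members lay below the median of all such genes. At the common depth 22 did so in control and 20 in experiment neurons. Whether members vary less than genes of equal level was not tested. The steadiest members were Rab3a (0.25 in control, 0.32 in experiment neurons) and Ap2m1 (0.289 and 0.39). The most variable were Unc13c (3.42 and 3.22) and Rab3b (1.78 and 2.14), both with no count in many neurons.

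Variation was larger in the experiment group for 34 of 41 members, and for 6924 of all 9113 expressed genes. Cplx1 was an exception, with a coefficient of 0.399 in experiment and 0.569 in control neurons, as was Cltc (0.388 and 0.55), and both also varied less in the experiment group at the common depth. Vamp2 had close values (0.368 and 0.378), whose order was the opposite at the common depth (0.385 and 0.351). At its level, Cplx1 varied widely among control neurons, and Syn2 (1.56) and Vamp1 (1.44) did so at lower levels. The plot of variation against level shows these genes above the others of like CPM. Their coefficients span both title sets, between which control levels differed. The control median of Cplx1 was 2868 CPM in set 1 and 5078 in set 2. Pooled control CPM was 256 and 54.1 for Syn2, and 215 and 51.1 for Vamp1. The part of the sets in this variation was not tested.

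**Figure D5:**
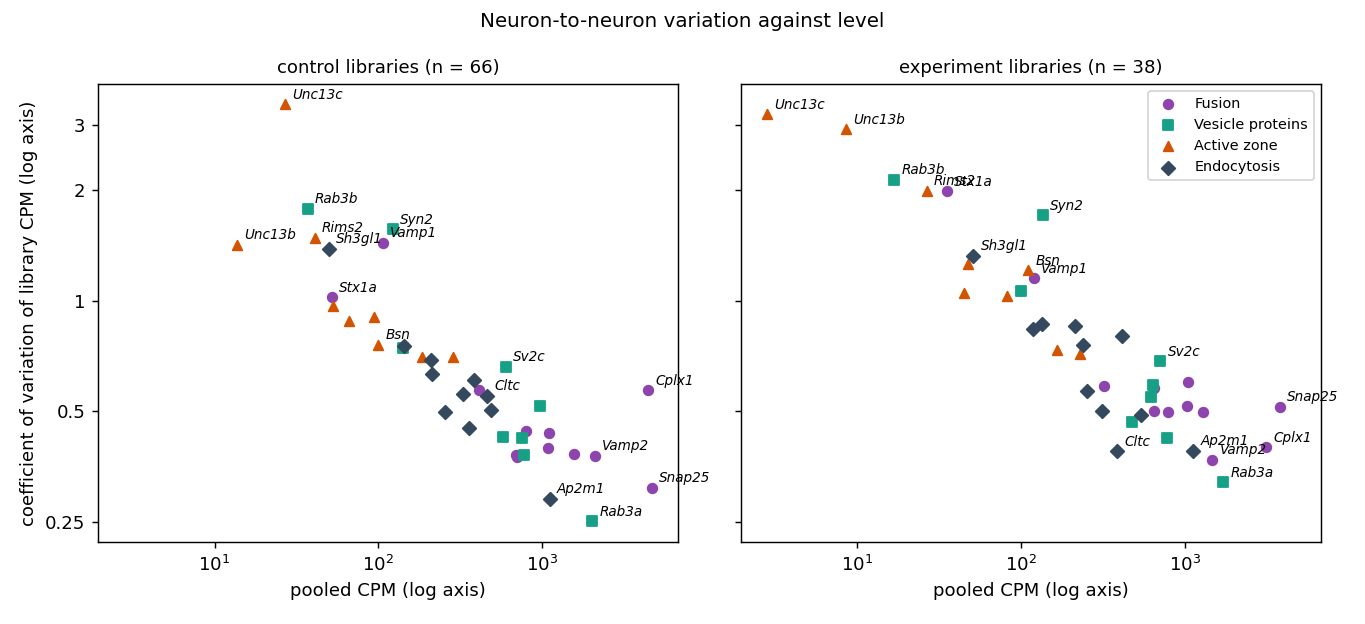
Coefficient of variation of library CPM against pooled CPM (both log axes) for the 41 genes in control and experiment neurons. Variation falls with level in both groups, with Unc13c at the top and Rab3a at the bottom, and Cplx1 lies above Snap25 among control neurons.

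Pairs of members varied together only weakly across neurons. Over the 820 pairs the median Spearman correlation of library CPM was 0.06 in the 66 control and 0.05 in the 38 experiment libraries, close to the 0.04 and 0.04 of all expressed genes. Correlations here are descriptions: points share library depth and a fixed total, and genes are not independent. All expressed genes were not matched to the members in level, so their pairs are not a like comparison. At or above 0.5 lay 6 control pairs (0.732%, against 0.0264% of pairs of all expressed genes) and 13 experiment pairs (1.59%, against 0.314%). Within title sets these shares were 3.78% against 0.776% in control set 1 and 1.34% against 0.40% in control set 2. In the experiment group they were 5.37% against 2.42% in set 1 and 3.9% against 3.36% in set 2, where the members' share was thus near that of all genes.

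A small block stood out in the control neurons. Cplx1 and Sv2c had a correlation of 0.66 (0.62 in set 1, 0.45 in set 2) and Cplx1 and Rab3c 0.62 (0.66 and 0.37). Sv2c and Rab3c stood at 0.60 (0.69 and 0.34) and Vamp2 and Cplx1 at 0.60 (0.68 and 0.54). Cplx1 and Sv2c also went with Th among control neurons, at 0.50 and 0.46, and against the glial marker sum, at -0.36 and -0.31. Their values went with the number of genes detected as well (0.52 and 0.44), whose part in these correlations was not tested. Among experiment neurons the highest pairs were Syt1 with Sv2c (0.65) and Syp with Ap2a1 (0.62). In sets 1 and 2 these pairs stood at 0.82 and 0.36, and at 0.71 and 0.44. Syt4 went with Th at 0.69 among experiment neurons, against 0.13 among control neurons.

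Syn2 ran against several members among control neurons, with -0.42 for Erc2 and -0.41 for Syt1, stronger in set 1 (-0.61 and -0.60) than in set 2 (-0.17 and -0.04). It went with the glial marker sum at 0.42 and against Th at -0.31. Snap25 and Nsf ran against the mitochondrial share of counts, at -0.52 and -0.52 in control and -0.42 and -0.25 in experiment neurons. Since that share was higher in the experiment group, its part in the lower Snap25 was not tested. The summed level of all 41 ranked against the ERCC share at -0.56 in control and -0.32 in experiment neurons. In the experiment group it was -0.08 in set 1 and -0.54 in set 2, while the control sets gave -0.58 and -0.61.

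The wider vesicle cycle was described by the same counts over 90 further genes, of which 89 had a row and 79 were expressed. Of the 79, 53 were lower by both weightings (67.1%, against 45.8% of all expressed genes) and 18 higher (against 40.9%). Of them, 8 were at least 1.5-fold lower (10.1%, against 11% of all expressed genes) and 4 at least 1.5-fold higher (5.06%, against 7.77%), and the median log2 ratio was -0.22. Ranked by whichever of a gene's pooled and mean-library log2 ratios lay nearer 0, the furthest lower were Snap23, the broadly expressed relative of SNAP-25 (0.283), the endocytic nucleator Fcho2 (0.401) and the vesicle carrier protein Scamp5 (0.531). Snap23 and Fcho2 had a median of 0 in both groups, and 1 library held 56.1% of the experiment Snap23 counts. Scamp5 had a median of 112 CPM in experiment and 241 in control neurons, with ratios of 0.576 and 0.49 in the sets. The liprin Ppfia2 ranked after Scamp5, at 0.518 pooled but 0.593 by means. By the same ranking the furthest higher were Synpr, synaptoporin (1.99), the synaptotagmin Syt14 (1.89) and Stxbp6, amisyn (1.61), each with a median of 0 in both groups and detected at the common depth in 8, 8 and 17 of 34 experiment and 13, 23 and 19 of 60 control libraries. Stxbp6 and Syt14 changed side between the sets (0.755 and 6.58, 2.45 and 0.641). For Synpr, 1 experiment library held 48.4% of that group's counts and 1 control library 54.8% of the control counts. Pacsin2, a membrane-bending endocytic protein, ranked after Stxbp6 at 1.53 pooled and 1.85 by means, and the syntaxin Stx4a stood at 1.72 pooled but 1.28 by means.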

How the data were processed

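The authors deposited 1 table of raw counts by gene symbol for 104 single-neuron libraries (patch-seq, Smart-seq2 cDNA, per the labels' protocols). STAR 2.5.3a, featureCounts 1.5.3 and mm10 stand in the submitters' processing notes; the annotation, the strandedness and how multi-mapped reads were treated: not given in the sources used here. Paralogs and overlapping genes may share reads. The 92 ERCC rows were kept out of library totals. Groups came from the titles. Pooled CPM, ratios with exact binomial 95% intervals, mean and median library CPM, and values thinned to 400000 counts (34 experiment and 60 control libraries) were computed in Python 3.11.15 with NumPy 2.4.6 and SciPy 1.17.1; a group sum under 3 counts was raised to 3 for a ratio. Reads carry no molecular identifiers, so intervals cover counting error only. edgeR 4.0.16 and DESeq2 1.42.0 gave scaling alternatives only, and the fold rule was tested on simulated data. Library and title pairs were compared: 0 of 5356 pairs had identical counts. Families were compared per kb of GENCODE exons, in libraries with at least 20 family counts.

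Title set 1 holds the upper-case controls up to number 37 and experiments below 36; the division of experiments rests on the records' order. The members and lists were chosen with earlier results of these data known. Full library values are given for members at least 1.5-fold apart, the 2 highest per kb in each class and the 2 highest and lowest in variation among controls, and of the other vesicle genes the 3 furthest each way are named. Values for other members, such as Vamp2, Rab3c, Sv2c and Ap2a2, were singled out after they were seen.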

Additional observations from a re-analysis of the deposited data

How the results depend on the processing

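The number of members at least 1.5-fold lower was 3 of 41 by pooled and mean CPM, against 11% of all expressed genes. It was 10 on median library CPM, against 38.2% of all expressed genes. On mean log2(CPM + 1) relative to all expressed genes it was 6, against 17%, and per ERCC count 38, against 59.6%. Title set 2 alone gave 8, against 17.5%. Thinning gave 6, against 14.9%, and leaving out each gene's highest library of each group 6, against 16.5%. Among genes of at least 100 CPM, which leaves Rab3b and Unc13c out, it was 1 of 32, against 4.03%. At least 1.5-fold higher was 1 member on mean log2(CPM + 1), 1 in title set 1 alone and 2 without controls 1 to 10, against 0. The shares of all expressed genes were 14.5%, 9.69% and 9.67%, against 7.77%. Members higher by both weightings were 19 on mean log2(CPM + 1) and 0 per ERCC count, against 7. The median log2 ratio of -0.28 was -0.37 on median library CPM, -0.019 on mean log2(CPM + 1), -0.37 in title set 2 and -1.03 per ERCC count, a scale that put all expressed genes at -0.78. The cause of these shifts was not tested. Under TMM, median-of-ratios scaling, without mitochondrial and ribosomal protein counts, leaving out the 10 libraries of highest glial markers, and without experiment library 27, counts of genes 1.5-fold lower were 3 or 4. The shares of all expressed genes there ran from 10.2% to 12.7%. Rab3b, Unc13c and Ap2a1 kept their direction under every alternative run, apart from Unc13c on median library CPM, where both medians were 0. On mean log2(CPM + 1) relative to all expressed genes, Unc13c was not among the members at least 1.5-fold lower. Ap2a1 fell short of 1.5-fold without libraries of Th below 2000 CPM (0.679), and Unc13c stood at 0.618 without controls 1 to 10. The 2 members then 1.5-fold higher were Vamp1 and Syn2, and in title set 1 and on mean log2(CPM + 1) it was Sv2c. Of the 41 members, 41 kept their pooled direction under TMM and median-of-ratios scaling, 35 by mean library CPM, 34 by median library CPM, 28 relative to all genes on mean log2(CPM + 1) and 29 per ERCC count. The alternatives without controls 1 to 10, without libraries of Th below 2000 CPM, without experiment library 27 and among genes of at least 100 CPM were chosen after seeing the data. Libraries as shallow as 116567 counts limit what can be seen of Unc13b, Unc13c, Rab3b and Stx1a. No test between the groups was made. No paired analysis was possible, because no animal is named for any library and title numbers shared between groups only name libraries.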
